A study of Mus musculus with 2 samples.

Results

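Actin filaments are built, branched, cut and bundled by families of dedicated proteins, and the set described here is 43 genes of that machinery in a mouse rectal carcinoma line, CMT-93, and a derivative recovered from lung tumours. The genes were listed by name and not by a cut on measured values, though earlier results of these data were known. They were sorted by role into the Arp2/3 complex with its WASP and WAVE activators and the cofilins with their kinases and phosphatases. Further groups were capping and severing proteins, bundlers and crosslinkers, β-thymosins, tropomyosins, and the ezrin, radixin and moesin (ERM) family. Of the 43 genes, 40 had a probe set (the short oligonucleotides that together report a transcript) assigned to them alone, out of 18193 genes with such a probe set, and 39 of the 40 were measured. Actr2, Arpc1b and Arpc3 had no probe set assigned to them alone and were not analysed here. Cap2 was not measured, at 4.45 log2 in the parental and 4.52 in the lung-recovered line.

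Parental CMT-93 cells were compared with CMT93-PM1 cells, which are CMT-93 cells that had been given by tail vein to 6-week-old female C57BL/6 mice, taken out of lung tumours 8 weeks later and put back into culture. Both lines were grown in the same medium, without any drug or genetic change named in the labels, and the study asked which genes differ between the lung-recovered line and its parent. How many mice or tumours contributed to CMT93-PM1 is not stated in the labels. Each line was measured on 1 Affymetrix array from 6 µg of total RNA, so no difference below has a replicate error, a test or a p-value, and effects of 1 culture or 1 hybridization cannot be told apart from those of the line. In such bulk RNA, fewer cells of a type and less RNA per cell cannot be told apart either.

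The deposited values are log2 signals, and a log2 ratio here is always lung-recovered minus parental. A gene is represented by its probe set with the highest mean signal. A gene counts as measured where that signal exceeds the 40th percentile of at least 1 array, 4.69 log2 for the parental and 4.59 for the lung-recovered line (the floor), and all 39 measured genes of the set exceeded it on both. Probe sets bind with different strength, so a difference in signal between genes is not read as a difference in amount of transcript. Signals across genes serve for the floor, for summed marker lists and for a range of strong signal. The only spread in the data is that between probe sets of 1 gene on the same arrays, whose SD of the log2 ratio had a median of 0.167 over 5782 genes, or 1.12-fold, and a 90th percentile of 0.49. For the 26 genes of the set with more than 1 probe set above both floors, the median SD was 0.181.

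The labelled epithelial origin was checked against its markers. Of 12 epithelial genes, 9 were measured, among them Epcam (10.36 and 11.20), Krt8 (11.98 and 12.54) and Cdh1 (12.66 and 12.52), while the intestinal genes Cdx1, Lgals4 and Vil1 were below both floors. The summed linear signal of the epithelial list was 29356 and 37869, that of 12 fibroblast and smooth muscle genes 412 and 355, that of 12 leukocyte genes 2439 and 1280 and that of 8 endothelial genes 999 and 1163. Below both floors were 6 of the fibroblast and smooth muscle genes, among them Col1a1, Col3a1, Myh11 and Cnn1, 3 of the leukocyte genes, among them the pan-leukocyte gene Ptprc, and 4 of the endothelial genes, among them Pecam1. The others exceeded a floor, with Des (6.78 and 6.23) and Acta2 (5.83 and 5.64) on the first list. On the leukocyte list these included Cd14 (10.63 and 9.14), Cd74 (8.27 and 6.70), Csf1r (6.42 and 7.54) and Cd68 (5.23 and 7.05), and on the endothelial list Esam (8.93 and 8.70), Cdh5 (4.21 and 9.30) and Tek (8.57 and 3.43). Some markers of other cell types thus exceeded the floor on both arrays. Cdh5 did so on the lung-recovered array alone and Tek on the parental one alone.

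As background, cells push their membrane forward by letting WASP and WAVE proteins switch on the Arp2/3 complex, which starts a new filament as a branch on an old one. Capping protein stops growth at the fast-growing end, cofilin cuts and unravels old filaments, and LIM kinases switch cofilin off while slingshot phosphatases switch it back on. Fascin and plastins tie filaments into the tight parallel bundles of protrusions and microvilli, α-actinin and filamin crosslink them into stress fibres and networks, tropomyosins coat filaments, and ERM proteins tether them to the plasma membrane.

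Most of the machinery differed by less than 1.5-fold between the 2 lines, and 3 of the 6 genes past that limit were bundlers or crosslinkers. The bundler gene Fscn1 and the WAVE gene Wasf1 were each 1.95-fold higher in the lung-recovered line, the crosslinker gene Actn1 was 1.75-fold higher, and the plastin gene Lcp1 was 1.87-fold lower. At 1.5-fold or more, 5 of 39 genes (12.8%) were higher and 1 (2.56%) was lower, where 11.5% of all 13332 measured genes were higher and 6.95% lower, so the share that was higher lay near the background. At 2-fold or more the counts were 0 in both directions, against 4.42% of all genes higher and 2.55% lower. The log2 ratio was above 0 for 29 genes of the set (74.4%), below 0 for 8 and exactly 0 for 2, with a median of 0.20. Over all measured genes 49.2% were above 0 and the median was 0.00.

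The set holds many genes of strong signal, so it was also set beside such genes. Among the 2769 genes with a mean signal of at least 9.68 log2, the lower quartile of the set, 54.7% had ratios above 0 and the median was 0.05. Within that range the set had 29 genes, with 21 (72.4%) above 0 and a median of 0.20. At 1.5-fold, 3 of these 29 were higher and 0 lower, against 8.74% and 5.38% of all genes in the range, and at 2-fold 0 were higher or lower, against 1.95% and 1.52%. This range of signal was chosen after the values had been seen.

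**Figure D1:**
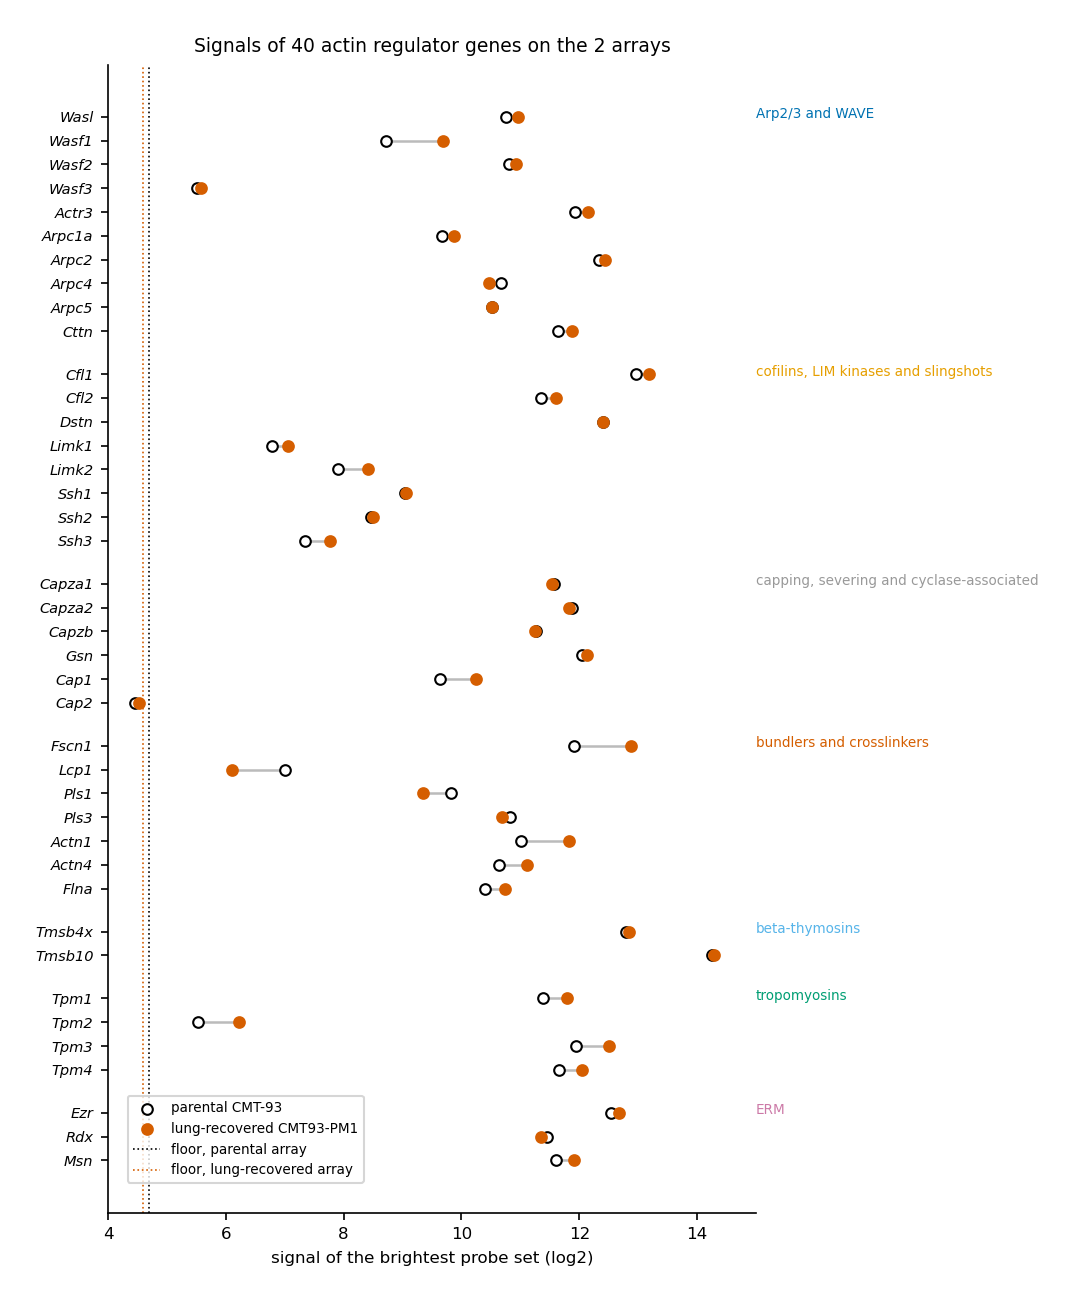
Log2 signal (horizontal axis) of the brightest probe set of each of the 40 genes with a probe set of their own, in the parental line (open circles) and the lung-recovered line (filled circles), 1 array each, with the floor of each array as a dotted line. The circles are furthest apart for Fscn1 (11.91 and 12.87), Wasf1 (8.72 and 9.68) and Lcp1 (7.0 and 6.10), and Cap2 lies below both floors.

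The promoters of 4 genes are shown because these are the members past 1.5-fold with more than 1 probe set above both floors and all of them of the same sign. Each run is 300 bases of RefSeq sequence (GRCm38.p6), 250 before to 50 after an annotated transcription start, 5′ to 3′ on the gene's strand, and Lcp1 has 2 annotated starts. Capitals mark TATAAA, a core promoter element, and GGGCGG, the GC box bound by Sp1-type factors, each searched on both strands. The CArG box, bound by serum response factor, was searched too and was in none of the runs shown.

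Fscn1, chr5:142960105-142960404, plus strand: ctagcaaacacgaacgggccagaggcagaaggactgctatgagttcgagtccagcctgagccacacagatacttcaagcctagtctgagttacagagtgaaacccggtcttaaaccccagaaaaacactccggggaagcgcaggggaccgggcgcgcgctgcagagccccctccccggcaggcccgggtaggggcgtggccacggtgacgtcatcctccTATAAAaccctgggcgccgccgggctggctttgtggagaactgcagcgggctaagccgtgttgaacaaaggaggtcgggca

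Actn1, chr12:80260314-80260613, minus strand: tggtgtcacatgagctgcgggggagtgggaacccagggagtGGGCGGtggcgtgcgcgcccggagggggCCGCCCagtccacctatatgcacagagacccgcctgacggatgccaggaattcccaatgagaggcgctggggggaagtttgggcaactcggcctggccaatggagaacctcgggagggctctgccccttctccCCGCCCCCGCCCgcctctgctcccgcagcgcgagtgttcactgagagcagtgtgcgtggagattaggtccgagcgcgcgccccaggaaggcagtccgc

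Cap1, chr4:122886027-122886326, minus strand: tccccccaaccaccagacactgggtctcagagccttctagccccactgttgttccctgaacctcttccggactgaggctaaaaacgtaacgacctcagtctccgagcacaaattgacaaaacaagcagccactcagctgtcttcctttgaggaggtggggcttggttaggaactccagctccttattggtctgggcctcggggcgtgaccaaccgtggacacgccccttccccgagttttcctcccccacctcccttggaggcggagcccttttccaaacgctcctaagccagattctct

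Lcp1, upstream start, chr14:75130873-75131172, plus strand: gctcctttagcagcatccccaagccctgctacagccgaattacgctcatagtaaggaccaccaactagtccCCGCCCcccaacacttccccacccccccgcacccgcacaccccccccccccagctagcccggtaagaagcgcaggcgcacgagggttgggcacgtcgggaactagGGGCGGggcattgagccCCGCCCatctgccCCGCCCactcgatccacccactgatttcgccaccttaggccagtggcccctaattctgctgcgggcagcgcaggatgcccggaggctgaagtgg

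Lcp1, downstream start, chr14:75136175-75136474, plus strand: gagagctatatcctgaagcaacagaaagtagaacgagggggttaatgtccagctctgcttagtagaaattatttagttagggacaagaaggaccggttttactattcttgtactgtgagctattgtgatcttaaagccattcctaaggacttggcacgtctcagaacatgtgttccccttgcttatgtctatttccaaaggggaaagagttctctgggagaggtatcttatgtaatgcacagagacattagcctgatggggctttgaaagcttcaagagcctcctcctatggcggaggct

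The Fscn1 window holds 1 TATAAA and 0 GGGCGG, that of Actn1 holds 4 GGGCGG, 2 of them adjacent, and that of Cap1 holds none of the motifs. At Lcp1 the upstream window has 4 GGGCGG and 19 CG dinucleotides and the downstream window 0 and 4. Which Lcp1 start is used in these cells was not measured. Of the 43 genes, 42 have windows in the table, 56 in all, with Cttn absent. GGGCGG was in 43 of the 56 (76.8%), against 35.7% of all 32851 windows, and the median number of CG dinucleotides was 21 against 7. TATAAA was in 1 of the 56, that of Fscn1, against 13.6% of all windows. The CArG box was in 1, that of Arpc4, against 1.63% of all. The set was compared with all windows only, and not with those of measured genes or of genes with strong signal. A match is a run of letters and not a measured binding site.

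Bundlers and crosslinkers had the widest range of ratios of any sub-group, from -0.90 to 0.96 over 7 genes, with 2 past 1.5-fold upward and 1 downward. Fscn1 encodes fascin, which packs filaments tightly in filopodia and is known for high levels in invasive carcinomas. Its signal was 11.91 log2 in the parental and 12.87 in the lung-recovered line. The other Fscn1 probe sets read 9.05 and 9.93, 7.49 and 8.36, and 6.99 and 8.29, so all 4 were higher in the lung-recovered line, with ratios from 0.87 to 1.30. Fscn1 lay between 0.88 and 1.06 under the 9 alternative ways of processing that were tried.

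Actn1 and Actn4 encode the non-muscle α-actinins, which crosslink filaments in stress fibres and at adhesions. Actn1 read 11.01 and 11.82 log2, and its other probe sets 8.18 and 9.38, and 6.27 and 7.31. All 3 were higher in the lung-recovered line, with ratios of 0.81, 1.2 and 1.04. Actn4 was measured by 1 probe set, at 10.63 and 11.12, or 1.40-fold higher. Flna, the gene of the network crosslinker filamin A, read 10.40 and 10.74, with a ratio of 0.34 that is smaller than the 90th percentile of the spread between probe sets.

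The plastins, which bundle filaments in microvilli and in leukocytes, all had ratios below 0, under each scaling of the arrays as well. Lcp1 (L-plastin), known from leukocytes and from many carcinomas, read 7.0 and 6.10 log2, and 6.33 and 4.88 by its other probe set, a ratio of -1.45. Pls1 (I-plastin), the plastin of intestinal microvilli, read 9.82 and 9.34, a ratio of -0.48 or 1.39-fold lower. Pls3 (T-plastin), the widely expressed form, read 10.83 and 10.68, a ratio of -0.15 that is within the spread between probe sets. Of the 3 plastins only Lcp1 passed 1.5-fold, and Pls1 and Pls3 were measured by 1 probe set each. Beside the lower Lcp1, the summed linear signal of leukocyte genes was lower too, and Cd14 (10.63 and 9.14) weighed most in that sum. Past 2-fold, 2 of 9 measured members were higher (Cd68 and Csf1r) and 3 lower (Cd14, Cd74 and Plek). Over all measured genes 4.42% were higher and 2.55% lower at 2-fold or more. Ptprc (3.31 and 2.82) and Coro1a (4.10 and 3.93) lay below both floors. The part of leukocyte genes in the Lcp1 difference was not tested.

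**Figure D2:**
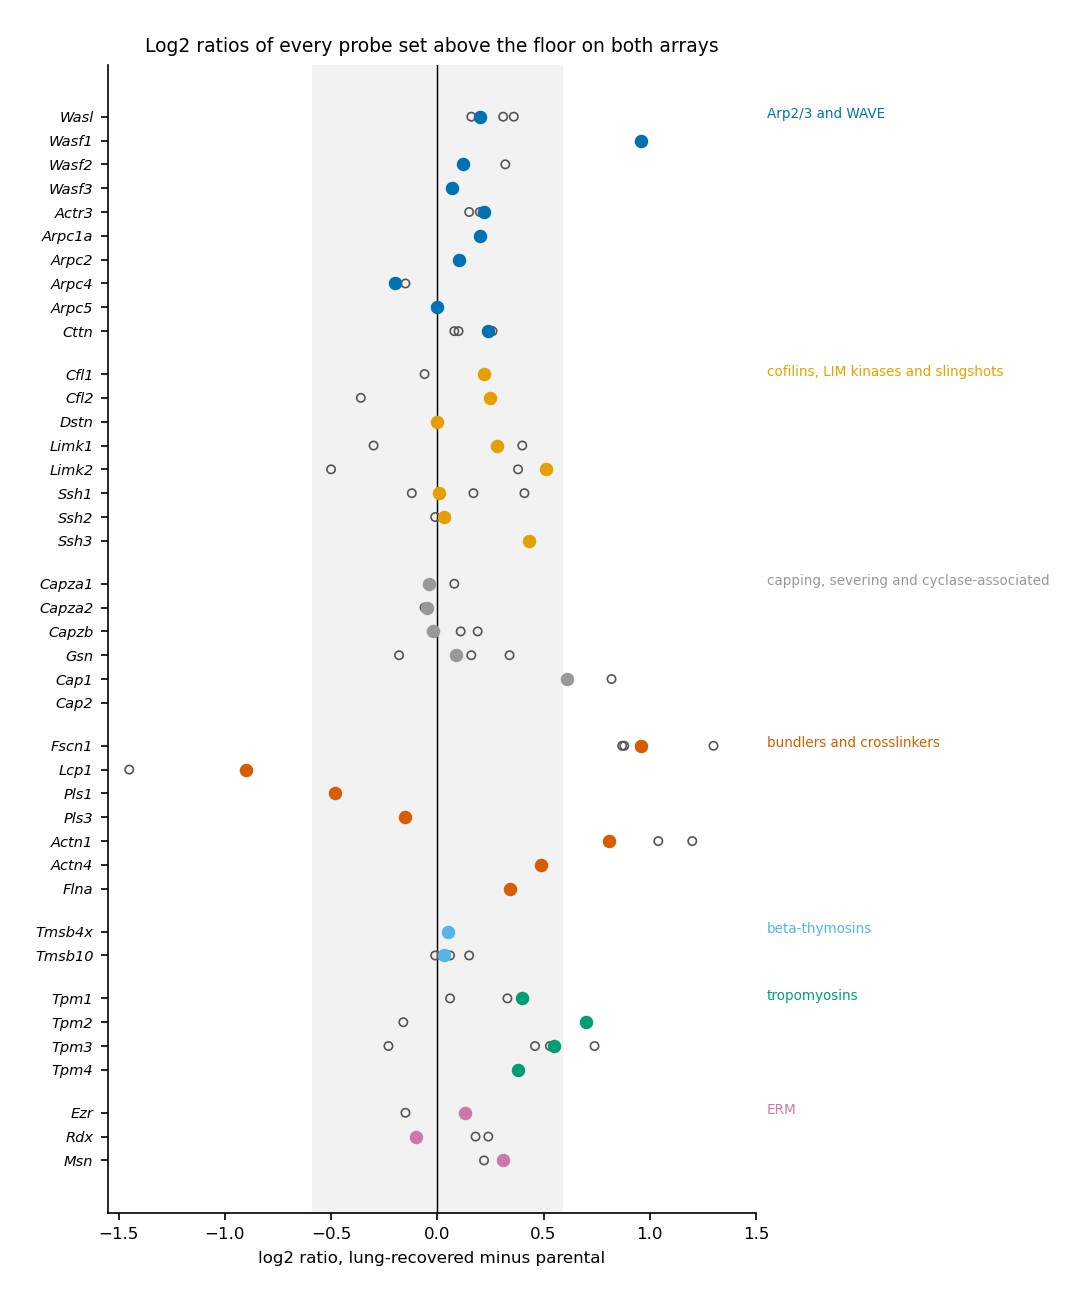
Log2 ratio (horizontal axis, lung-recovered minus parental) of the set's 88 probe sets that lie above both floors. Filled circles are the brightest probe set of each gene, open circles the others, and the grey band spans less than 1.5-fold. All probe sets of Fscn1, Actn1, Cap1 and Lcp1 lie outside the band, and those of Limk2, Cfl2 and Tpm3 lie on both sides of 0.

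Tropomyosins are coiled-coil proteins that lie along the filament and govern which other proteins reach it, and each of the 4 genes makes several isoforms by splicing. By the brightest probe set all 4 were higher in the lung-recovered line, from 0.38 to 0.70 with a median of 0.48, and none of the scalings changed these signs. Tpm1 read 11.39 and 11.79 log2, and 11.39 and 11.72 by a second probe set. Tpm3 read 11.95 and 12.50, or 1.46-fold higher, and 3 further probe sets gave ratios of 0.46, 0.53 and 0.74, while a dim one without a suffix read 4.97 and 4.74, a ratio of -0.23. Tpm4, with 1 probe set, read 11.66 and 12.04, or 1.30-fold higher. The ratios of Tpm1 (0.40) and Tpm4 (0.38) were smaller than the 90th percentile of the spread between probe sets (0.49).

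Tpm2, a tropomyosin best known from muscle and fibroblasts, had the highest ratio of the family and passed 1.5-fold, at signals near the floor and with probe sets that disagreed. It read 5.52 and 6.22 log2 by its brightest probe set, but 5.25 and 5.09 by the next, and 3.91 and 4.79 by one that is above the floor in the lung-recovered line alone. With the floor at the 60th percentile its ratio was 0.04, and without probe sets of suffix _a, _s or _x, which can match several transcripts, it was -0.16. Of the listed smooth muscle genes, Myh11 (3.93 and 4.02) and Cnn1 (4.15 and 4.29) lay below both floors. Tagln (5.38 and 5.41), Acta2 (5.83 and 5.64) and Des (6.78 and 6.23) lay above both. Without the suffixed probe sets the family's median was 0.11.

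The Arp2/3 complex itself was close to equal in both lines. Of its 8 listed subunits, 5 were measured, with ratios from -0.20 to 0.22 and a median of 0.10. Actr3, which encodes the actin-related protein Arp3, read 11.92 and 12.14 log2, and its 3 probe sets had ratios from 0.15 to 0.22. Arpc2, a subunit that clamps the mother filament, read 12.33 and 12.43. Arpc1a read 9.67 and 9.87, Arpc4 10.67 and 10.47, and Arpc5 10.52 on both arrays. Only Arpc4 was below 0 in these values, with both of its probe sets, at -0.20 and -0.15.

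Among the activators of the complex, Wasf1 stood furthest from 0. Wasf1 encodes WAVE1, which is known from neurons and is present in many cultured cells, and it read 8.72 and 9.68 log2 by its sole probe set, so no second one bears on it. Wasf2, the widely expressed WAVE2 gene, read 10.81 and 10.93, and 7.71 and 8.03 by a second probe set. Wasf3 read 5.51 and 5.58, near the floor. Wasl, the gene of N-WASP, read 10.76 and 10.96, and all 4 of its probe sets were above 0, from 0.16 to 0.36. Cttn, the gene of cortactin, which stabilises branches and marks invadopodia, read 11.64 and 11.88, with 4 probe sets from 0.08 to 0.26. The sub-group of 10 measured genes had 8 above 0 (80%) and 1 below, where 49.2% of all measured genes were above 0. Its median was 0.16, and 1 gene was past 1.5-fold.

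In the cofilin branch, 7 of 8 genes (87.5%) had ratios above 0 by their brightest probe set, against 49.2% of all measured genes. Among the 7 were Ssh1 at 0.01 and Ssh2 at 0.03. None passed 1.5-fold, and the median was 0.24. Cfl1, the main non-muscle cofilin gene, read 12.97 and 13.19 log2 by a suffixed probe set, and 10.81 and 10.75 by the other. Cfl2, the cofilin gene of muscle, read 11.35 and 11.60, but 8.70 and 8.34 by a second probe set. Dstn, which encodes the related destrin, read 12.41 on both arrays. For both cofilin genes the probe sets therefore differed in sign, and no direction is given for them.

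The LIM kinase genes were above 0 by their brightest probe sets, with Limk1 at 6.78 and 7.06 log2 and Limk2 at 7.90 and 8.41, or 1.42-fold. A second probe set of each gave 0.40 and 0.38, and the dimmest of each went the other way, at -0.30 for Limk1 (5.5 and 5.20) and -0.50 for Limk2 (6.17 and 5.67). Of the slingshot phosphatase genes, Ssh3 read 7.34 and 7.77, a ratio of 0.43 by 1 probe set. Ssh1 (9.05 and 9.06) and Ssh2 (8.46 and 8.49) differed by less than 0.167, the median SD between probe sets of 1 gene. The other probe sets of Ssh1 gave 0.17, -0.12 and 0.41, and that of Ssh2 gave -0.01. Without suffixed probe sets the median of the cofilin branch was 0.01.

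Capping protein was close to equal in both lines. Capza1 read 11.57 and 11.53 log2, Capza2 11.87 and 11.82 and Capzb 11.27 and 11.25. By these brightest probe sets the α and β subunits that form the capping heterodimer all lay within 0.05 of 0. Their sign changed when the arrays were set to equal medians. Other probe sets gave 0.08 for Capza1, -0.06 for Capza2, and 0.11 and 0.19 for Capzb. Gsn, the gene of the severing and capping protein gelsolin, which is often low in carcinomas, read 12.04 and 12.13, with 4 probe sets from -0.18 to 0.34. The monomer-sequestering β-thymosins were as close, with Tmsb4x at 12.79 and 12.84 and Tmsb10 at 14.25 and 14.28.

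Cap1 encodes a cyclase-associated protein that recycles actin monomers from cofilin-bound filaments, and it was the exception in the capping and severing sub-group. It read 9.64 and 10.25 log2, or 1.53-fold higher in the lung-recovered line, and 9.38 and 10.20 by its other probe set, a ratio of 0.82. The brightest probe set lay just inside the 1.5-fold limit, at 0.61 against 0.585, and Cap1 was below it after lowess and quantile normalization. The genes just outside the limit were Tpm3 at 0.55 and Limk2 at 0.51.

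The ERM genes differed by less than 1.5-fold. Msn, the gene of moesin, read 11.60 and 11.91 log2, and 10.28 and 10.50 by its other probe set, with ratios of 0.31 and 0.22. Ezr, the gene of ezrin, the ERM protein of epithelial microvilli, read 12.54 and 12.67, and 9.71 and 9.56 by a suffixed probe set. Rdx, the gene of radixin, read 11.45 and 11.35 by its brightest probe set, while the others gave 0.24 and 0.18. Only moesin therefore had all probe sets on 1 side of 0.

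**Figure D3:**
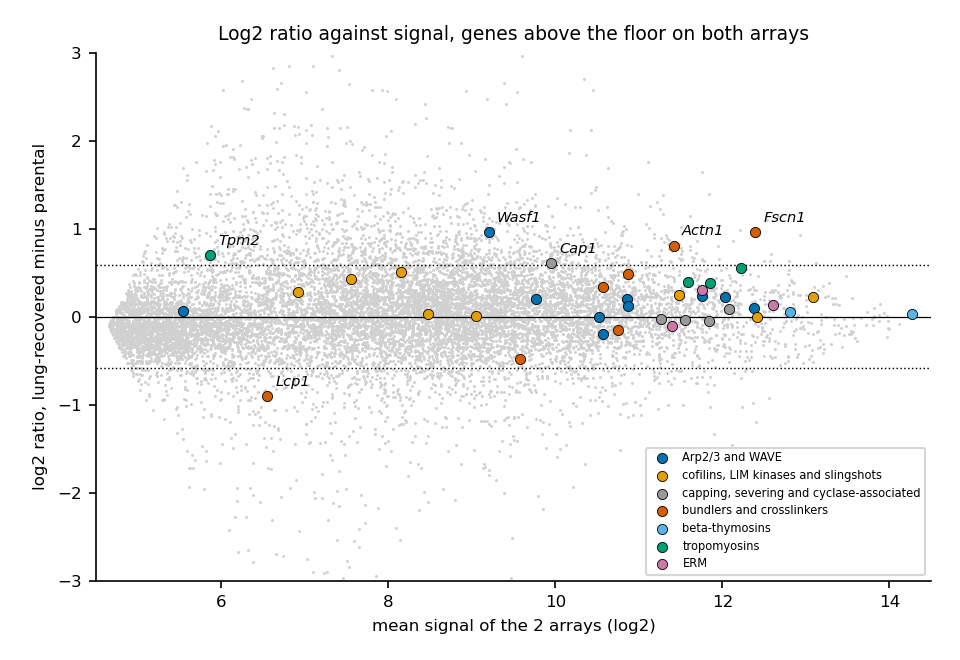
Log2 ratio (vertical axis) against the mean log2 signal of the 2 arrays (horizontal axis), with the 39 measured genes of the set coloured by sub-group over all other genes above both floors in grey, dotted lines at 1.5-fold, and the axis limited to ratios between -3 and 3. Fscn1, Actn1 and Cap1 lie above the upper line within the range of strong signal (mean of at least 9.68), and Wasf1, Tpm2 and Lcp1 pass the lines below that range.

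Probe sets of 1 gene did not always agree. Of the 26 genes with more than 1 above both floors, 12 (46.2%) had all of them on 1 side of 0, against 61.5% of the 5782 such genes overall. In 4 genes, Fscn1, Actn1, Cap1 and Lcp1, every such probe set was past 1.5-fold. The type of probe set also moved with the result. The 39 suffixed probe sets of the set had a median ratio of 0.22, with 34 above 0, and the 49 others a median of 0.10, with 30 above 0. Over all genes these medians were 0.03 and 0.00. Its part in the raised median of the set was not tested, and without suffixed probe sets that median was 0.09 over 35 genes.

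**Figure D4:**
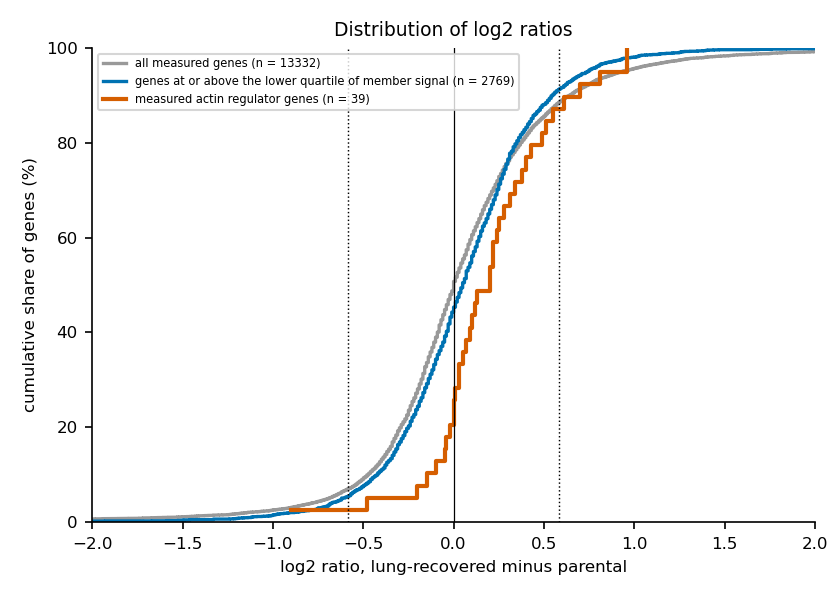
Cumulative share of genes (vertical axis, percent) by log2 ratio (horizontal axis, drawn from -2 to 2) for the 39 measured genes of the set, all 13332 measured genes and the 2769 genes with strong signal, with dotted lines at 1.5-fold. The curve of the set crosses the middle at 0.20, to the right of both others (0.00 and 0.05), and meets them near the upper 1.5-fold line.

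Other actin regulators were taken as a list of 66 genes by role, chosen like the set with earlier results of these data known. Of these, 59 had a probe set of their own under the listed name and 53 were measured, with 38 (71.7%) above 0, against 49.2% of all measured genes, and a median of 0.14. At 1.5-fold, 11 (20.8%) were higher and 1 (1.89%) lower, against 11.5% and 6.95% of all genes. At 2-fold 6 were higher and 0 lower by the representative probe sets, against 4.42% and 2.55%. The count of 0 depends on that choice for Marcks, a membrane-linker gene, which read 5.55 and 5.18 by its representative probe set. By 3 others it was above the parental floor and below the lung-recovered one (7.41 and 2.92, 6.83 and 3.46, 5.95 and 2.97), with bounds on the ratio of -2.82, -2.24 and -1.36. The 6 were Rhob, a stress-inducible small GTPase gene (9.79 and 11.48 log2, 3.23-fold), Mylk, the gene of myosin light chain kinase (at least 6.59-fold), the capping and bundling gene Eps8 (2.62-fold), the stress fibre gene Synpo (2.33-fold), Podxl, whose product binds ezrin through an adaptor (2.19-fold), and the membrane-linker gene Marcksl1 (2.38-fold).

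Probe sets agreed for Eps8, with ratios from 1.28 to 1.49 over 3, and for Podxl (1.13 and 0.65) and Marcksl1 (from 1.25 to 1.97 over 3). For Synpo a second probe set read 4.75 on both arrays, and for Mylk 1 read 5.24 and 4.99, while 2 lay below the parental floor (4.62 and 7.41, and 4.5 and 6.46). The upstream GTPase genes that activate WASP and WAVE differed less by their representative probe sets. Rac1 read 12.52 and 12.80, and Cdc42 12.07 and 12.20. Another Cdc42 probe set read 7.61 and 6.44, a ratio of -1.17, while the rest gave 0.17 and 0.10. Of the partners of the WAVE complex, Abi1 read 10.16 and 10.58, Brk1 10.67 and 10.93 and Nckap1 11.33 and 11.30, while Abi2 passed 1.5-fold by its representative probe set (7.82 and 8.55, a ratio of 0.73) and had -0.14 by another. The cytoplasmic actin genes read 13.82 and 13.96 for Actb and 13.22 and 13.05 for Actg1. Among adhesion linkers, Tln1 (talin, 8.76 and 9.64) and Vcl (vinculin, 10.27 and 10.92) were higher past 1.5-fold by their representative probe sets. Other probe sets gave 0.46 and -0.03 for Tln1 and 1.12 for Vcl. Zyx, the gene of the stress fibre protein zyxin, was the lower one, at 10.87 and 10.19 with a ratio of -0.68. Its other probe set gave -0.32.

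**Figure D5:**
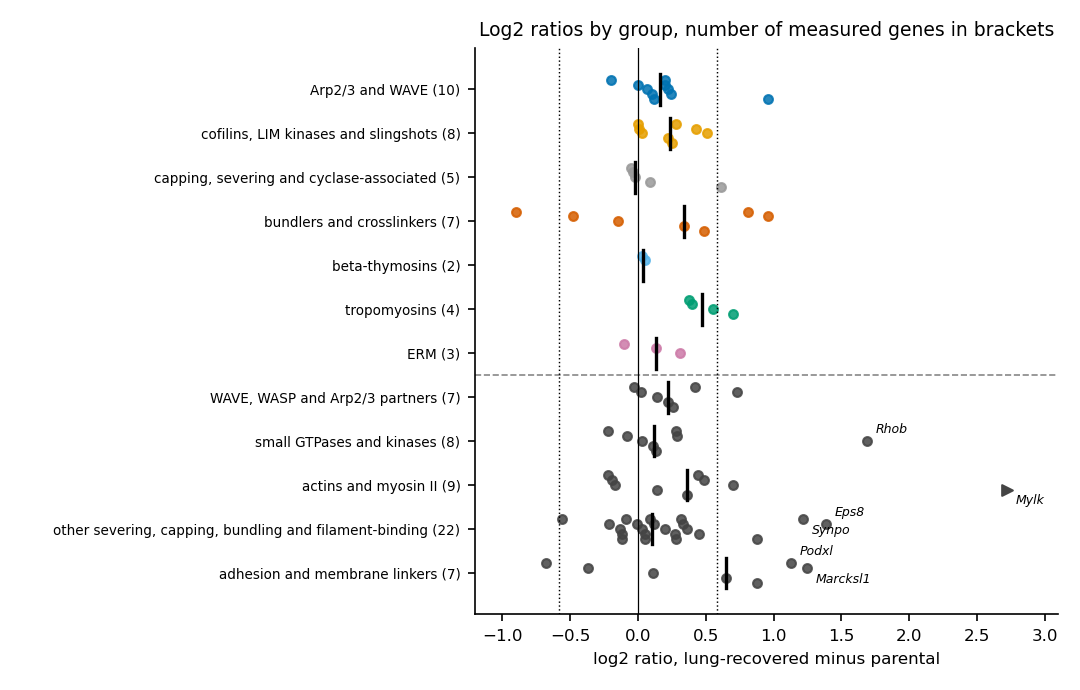
Log2 ratio (horizontal axis) of each measured gene by sub-group of the set (coloured, above the dashed line) and by group of other actin regulators (dark, below it), with a black bar at each group's median and dotted lines at 1.5-fold. Tropomyosins lie between 0.38 and 0.70, bundlers lie on both sides of 0, and all 6 genes drawn past 2-fold are other regulators, with Mylk (triangle) as a lower bound.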

How the data were processed

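Total RNA of 2 cultures was hybridized to 1 Affymetrix array each, per the labels. The deposited table holds log2 signals with 2 decimals for 45037 probe sets, as the authors left them, with the base taken from the values. The submitters' processing notes name MAS5 without a role, and the summarisation and scaling are not given in the sources used here. The values were used as deposited. Array medians were 5.36 (parental) and 5.26 (lung-recovered).

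The platform annotation lists 35877 probe sets, 34945 with 1 symbol and 932 with several, and 9160 are unnamed here. Entrez identifiers were matched to the GRCm38.p6 gene table for current symbols, which gave 18193 genes. Signals were floored at each array's 40th percentile, and 4861 genes lay below both floors. Where 1 array was at its floor, the fold is a bound, written "at least".

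With 1 array per group no test was made, and genes were counted at 1.5-fold and 2-fold. All members are named, with both array values for those past 1.5-fold, the brightest of each sub-group and sub-groups of up to 4 genes. The members, lists and the 1.5-fold limit were chosen with earlier results of these data known. The alternatives were other floors (20th and 60th percentile, none), scalings (equal medians, quantile, lowess with a span of 0.3) and probe set rules (median, no suffix, second brightest). Under the second brightest rule a gene with 1 probe set kept that probe set. The scripts were tested on simulated data and ran in Python 3.11.15 with pandas 2.3.3 and statsmodels 0.14.6.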

Additional observations from a re-analysis of the deposited data

How the results depend on the processing

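Under 9 alternatives Lcp1 was the 1 gene at least 1.5-fold lower, and Wasf1, Fscn1 and Actn1 were at least 1.5-fold higher each time. For Wasf1, with 1 probe set of signal well above the floor, only the scalings could move the ratio, which lay between 0.87 and 1.06. The number at least 1.5-fold higher was 5 as reported, 4 to 5 under 8 alternatives and 8 with the arrays set to equal medians, which raises the median of all genes to 0.10 and that of the set to 0.30, so that all directions near 0 depend on the scaling. At 2-fold or more in either direction there were 0 genes as reported and 2 with equal medians, with the median over probe sets and with the second brightest probe set. Without suffixed probe sets the median log2 ratio was 0.01 for cofilins, LIM kinases and slingshots, 0.10 for bundlers and crosslinkers and 0.11 for tropomyosins, and that of the whole set 0.09. Of the 6 genes past 1.5-fold only Tpm2 changed sign, to -0.16 without suffixed probe sets and with the second brightest probe set. The cause of these changes was not tested. Among single genes, 322 of the values under alternatives lay within 0.167 of the reported ratio and 19 others, beside those of Tpm2 just given, moved further. Of these 19, 11 changed sign, in 8 genes with reported ratios under 1.5-fold (Limk1, Limk2, Cfl1, Cfl2, Gsn, Ezr, Rdx and Tpm3). Many of the 322 could not move, so their number is no measure of stability. Other floors leave strong signals unchanged, and genes with 1 probe set keep it under the median and second brightest rules. No paired analysis was possible because each group has 1 array. The number of arrays limits the precision of every value.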
